A study of Mus musculus with 20 samples.

Results

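The genes of the interleukin-6 family that could be read from these arrays were 9: the cytokines Il6, Il11, Lif and Osm, the receptor genes Osmr, Il6ra and Il6st, the inhibitor Socs3, and the transcription factor gene Stat3. They were taken by gene name from the noncontrol probes and comprised 10 probes of 55681, because Stat3 had 2. The probes of 8 of the 9 genes passed the filter on dim probes and entered the tests; Lif did not. The study injected fibers into the pleural cavity, the space around the lungs, and compared long with short fibers of asbestos and of carbon nanotubes. RNA came from diaphragm tissue of 20 mice (C57Bl/6, female, 8 weeks old when injected), with 4 mice in each group, and was measured on single-color Agilent arrays 12 weeks later. Control mice received 100 μL of 0.5% BSA in saline, in which the fibers of the other groups were dispersed. SFA mice received short and LFA mice long amosite asbestos, both at 25 μg per mouse, and SFA had been ground from the same asbestos as LFA. NTS mice received short and NTL mice long carbon nanotubes, both at 5 μg per mouse, so the materials were given at different doses. Each value below is a log2 signal from which the 75th percentile of the array was subtracted, so a negative value lies below that percentile.

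Cytokines of this family bind their own receptor chains, which pair with the shared signaling chain gp130, the product of Il6st. Kinases of the JAK family on the paired receptor then phosphorylate STAT3, which enters the nucleus and switches on target genes. SOCS3 is among those targets and blocks the gp130 receptor, which limits the signal. In serosal tissue IL-6 is made by macrophages, fibroblasts and mesothelial cells and is known from inflammation and from mesothelioma.

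Array probes report only the stretch of RNA that they match, so the start of the probe is given for the genes that the results turn on. The first 30 of the 60 bases of each probe are shown in the order of the files, with the positions of those 30 bases on NCBI37 as the files give them and the strand that the order of the coordinates shows. Il6 and Socs3 differed from control in both long-fiber groups, and the pair of Stat3 probes gave different readings.
Il6 (chr5:30346367-30346396, plus strand): ctgttacctagccagatggtttcttggaat
Socs3 (chr11:117827510-117827539, minus strand): ccttcgaggctgtctgaagatgcttgaaaa
Osmr (chr15:6763716-6763745, minus strand): attgcagatgctctgtttacattttcttgt
Stat3, brighter probe (chr11:100749628-100749657, minus strand): cactctgtgagctgataccccaggctggga
Stat3, dimmer probe (chr11:100759976-100760005, minus strand): tttaacattctgggcacgaacacaaaagtg
The files do not say in which exon a probe lies. The transcript accessions of all 10 probes were found in the RefSeq gene table used here.

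Over all probes, 36920 were tested, and a probe was called when it differed at least 2-fold with an adjusted p under 0.05 in limma. LFA against control gave 816 higher and 646 lower probes, and NTL against control 1344 higher and 1167 lower. With quantile normalization these became 983 higher and 312 lower for LFA and 1557 higher and 598 lower for NTL, and the split of NTL against NTS went from 1817 higher and 980 lower to 2249 and 604, or to 1311 and 1217 with normexp background correction. The median change of all tested probes was -0.28 for LFA and -0.25 for NTL, against -0.08 and -0.09 with quantile normalization, so an unchanged gene could read slightly below 0. Relative to that median the change against control was 3.98 for Il6 and 1.82 for Socs3 in LFA, and 4.31 for Il6 and 1.73 for Socs3 in NTL. Transcripts of liver, a neighbor of the diaphragm, set 5 arrays apart. SFA replicate 2, LFA replicates 1 and 3, and NTS replicates 3 and 4 had a mean log2 level of 10 liver genes of 6.55 to 8.00, and the highest of the remaining arrays was at 4.28. Genes of skeletal muscle, the main tissue of the diaphragm, had a mean log2 level between 6.73 and 8.49 on all arrays, while the genes of lung had a mean log2 level between -5.33 and -3.77. Each array was a different mouse.

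Il6, which encodes the cytokine IL-6, was near the detection limit in control diaphragms and rose in both long-fiber groups. In control mice its log2 signal was -5.79, -5.52, -6.06 and -5.24 in replicates 1 to 4, and only the array of replicate 4 was well above background. LFA mice had -2.49, -1.82, -2.30 and -1.21, all well above background. These ranges did not touch, and 4.56% of all tested probes had every LFA array above every control array (NTL 6.36%, LFA over SFA 3.14%, NTL over NTS 7.66%). NTL mice had -2.62, -0.29, -1.99 and -1.47, also all well above background. SFA mice had -3.51, -5.79, -4.40 and -4.22, with 3 of 4 arrays well above background. NTS mice had -5.86, -5.94, -5.51 and -4.59, and only replicate 4 was well above background. All 8 long-fiber mice lay above all 12 control, SFA and NTS mice, as did 1.42% of the tested probes.

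**Figure D1:**
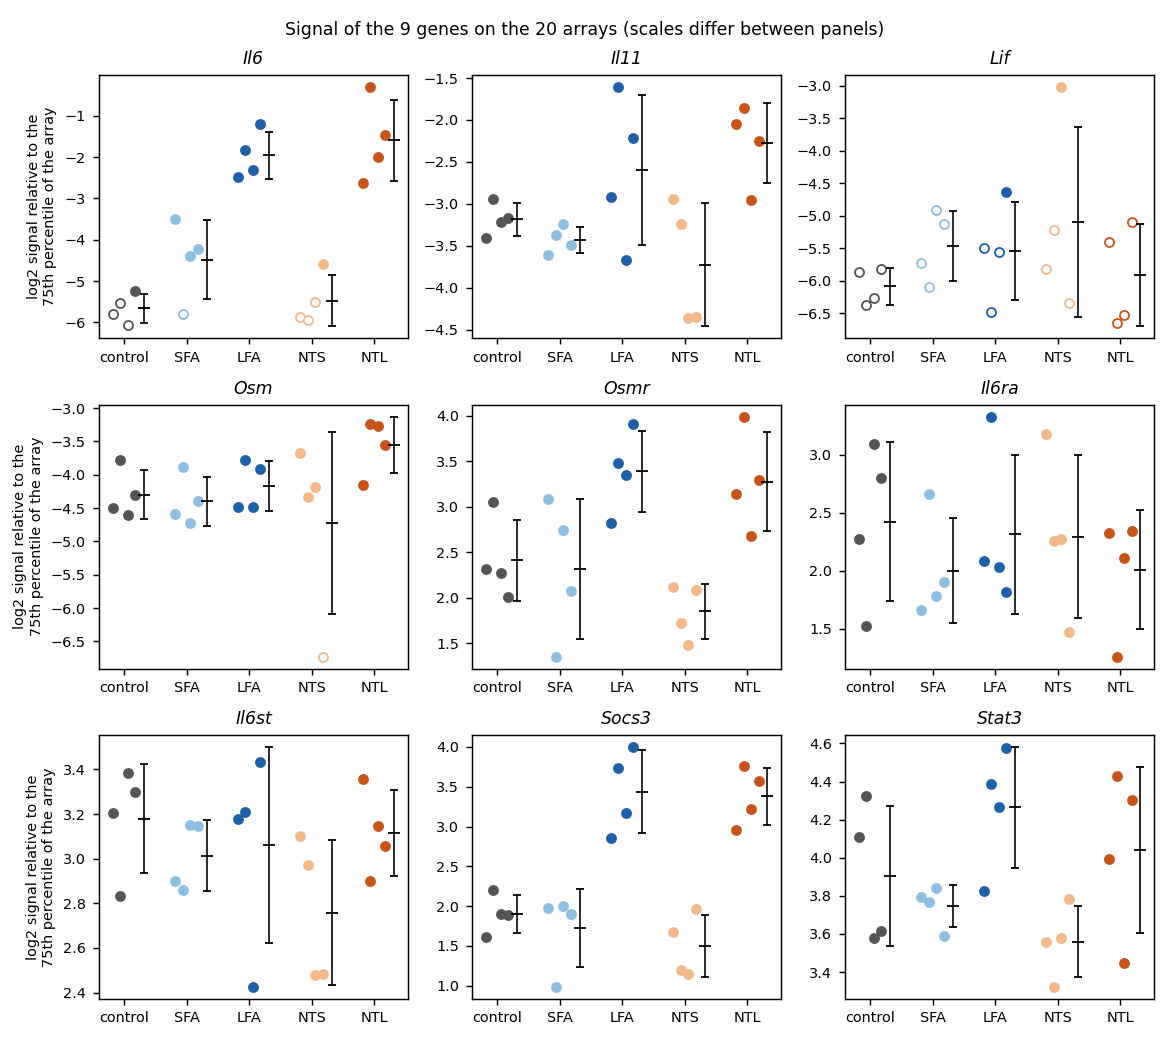
Log2 signal of the 9 genes relative to the 75th percentile of the array (vertical axes, with a scale of its own in each panel) in control, SFA, LFA, NTS and NTL mice. Each point is 1 mouse, open points are not well above background, and the bars give mean ± SD of 4 mice; for Il6 and Socs3 all LFA and NTL points lie above all other points.

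The Il6 signal rose 13-fold in LFA mice (95% interval 6.27 to 26.8; log2 change 3.70, SE 0.50, adjusted p = 0.000622 by limma). In NTL mice it rose 16.7-fold (8.06 to 34.5; log2 change 4.06, adjusted p = 0.000131 by limma). The members called in each of these comparisons were 2 of the 8 tested, Il6 and Socs3, both higher, where 3.96% of all tested probes were called in LFA and 6.8% in NTL (2.21% and 3.64% as higher). Both comparisons used the same 4 control arrays. With 3 of the 4 control arrays not well above background, the fold sizes rest on a control level that was itself barely measured. Their size depended on the background correction: with normexp the log2 change was 1.27 in LFA (adjusted p = 0.0246 by limma) and 1.57 in NTL (adjusted p = 0.0043), and both were still called. Fibers of the short kind gave smaller values. SFA was 1.17 above control on the log2 scale, with an unadjusted p of 0.0306 and an adjusted p of 0.998 by limma, and 3 of 4 SFA mice were above every control mouse. With normexp the SFA difference was 0.30 (adjusted p = 1 by limma). NTS differed from control by 0.18 (adjusted p = 1).

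Against the short fiber of the same material, Il6 was again higher with long fibers. LFA was 5.76-fold above SFA (95% interval 2.78 to 11.9; log2 change 2.53, adjusted p = 0.0155 by limma), and NTL was 14.7-fold above NTS (7.13 to 30.5; log2 change 3.88, adjusted p = 0.000128). The second fold rests on NTS arrays of which 1 of 4 was well above background, and with normexp the log2 change of NTL against NTS was 1.41 (adjusted p = 0.00803 by limma). Of all tested probes, 1.16% were called in LFA against SFA and 7.58% in NTL against NTS (1.03% and 4.92% as higher), and of the members 2 and 4 of 8, all higher. The difference between these length effects was -1.36 (SE 0.71, unadjusted p = 0.0705, adjusted p = 1 by limma), and 0 probes of the arrays were called in that test. The log2 change of LFA against NTL was -0.36, with a 95% interval from -1.41 to 0.69 and NTL the higher (adjusted p = 1 by limma). In order, the group means were -1.59 in NTL, -1.96 in LFA, -4.48 in SFA, -5.48 in NTS and -5.65 in control, and of the neighbors in that order only LFA and SFA differed in the test. That step was also the least firm. It lost its call with normexp (log2 change 0.97, adjusted p = 0.164), with quantile normalization (2.77, 0.0514), and without SFA replicate 2 (2.09, 0.0661), LFA replicate 2 (2.48, 0.0623) or LFA replicate 4 (2.28, 0.075).

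The arrays lay on 3 slides, and the Il6 difference was present on each. LFA was above control by 3.48 on slide 1, 3.17 on slide 2 and 4.24 on slide 3, and NTL by 3.04 on slide 2 and 4.80 on slide 3 (log2 differences of 1 to 3 arrays a group). LFA was above SFA by 2.16 on slide 2 and 2.49 on slide 3, and NTL above NTS by 3.28 on slide 2, where alone both groups were present. Without the 5 arrays rich in liver transcripts the Il6 change in LFA was 4.14 (adjusted p = 0.00097 by limma). Genes of macrophages, a source of IL-6, moved with Il6: 7 of the 10 measured were called higher in LFA and the same number in NTL, among them Cd68, which changed by 1.95 in LFA and 2.39 in NTL (log2). Their summed log2 level was 6.24 to 6.85 in control, 6.34 to 7.12 in SFA, 6.12 to 7.09 in NTS, 7.08 to 7.92 in LFA and 7.69 to 8.02 in NTL. The summed level of B and plasma cell genes was also higher, at 7.33 to 7.78 in LFA and 7.62 to 8.32 in NTL against 4.81 to 5.89 in control, with 1 of 7 genes called in each comparison. The mean log2 level of the same genes lay closer together, at 1.365 to 2.234 in LFA and 1.493 to 2.525 in NTL against 0.455 to 1.473 in control. Genes of skeletal muscle moved the other way, with 2 of 10 called lower in LFA and 3 in NTL and a summed level of 10.8 to 11.2 and 10.69 to 11.02 against 11.8 to 12.4 in control, and 1 of 8 adipocyte genes was called lower in LFA and 5 in NTL. Liver genes were called for 0 of 10 in LFA and in NTL. Their median log2 change against control was nonetheless 2.28 in LFA and 2.14 in NTL, and also 2.11 in SFA and 3.49 in NTS. Fibroblast genes were called higher for 1 of 9 in LFA and 4 in NTL, T cell genes for 0 of 8 and 1, granulocyte genes for 1 of 9 and 0, and those of mesothelium (9) and lung (4 tested) for 0 in both. The part of these cells in the Il6 difference was not tested, and in RNA from whole tissue more cells of a type and more RNA per cell cannot be told apart.

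Il11 encodes IL-11, a cytokine of fibroblasts and epithelium that also signals through gp130. Its log2 signal in control mice was -3.41, -2.94, -3.22 and -3.17, and in NTL mice -2.04, -1.86, -2.95 and -2.26. LFA mice spread more widely, at -2.92, -1.60, -3.67 and -2.21. NTS mice had -2.95, -3.24, -4.36 and -4.35, and SFA mice -3.61, -3.38, -3.24 and -3.49. Of the NTL mice 3 of 4 lay above every control mouse, and 6 of the 8 long-fiber mice above all 12 others, while LFA replicate 3 was below all control and all SFA mice.

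NTL was 2.73-fold above NTS in Il11 (95% interval 1.53 to 4.87; log2 change 1.45, adjusted p = 0.0305 by limma). Against control the change was 0.91 in NTL (adjusted p = 0.175) and 0.58 in LFA (adjusted p = 0.379), neither called by limma. The lowest Il11 signals of the series were those of NTS replicates 3 and 4 and LFA replicate 3, and these 3 arrays had the highest levels of liver genes, at a mean log2 of 8.00, 7.98 and 7.00. Without NTS replicates 3 and 4 the difference between NTL and NTS was 0.82 (adjusted p = 0.21 by limma). With all 5 arrays rich in liver transcripts left out, Il11 was called in LFA against control (1.28, adjusted p = 0.0371) and in LFA against SFA (1.54, adjusted p = 0.0424), and not in NTL against NTS (0.82, adjusted p = 0.0906). The part of the liver transcripts in the low readings was not tested. With slide as a block the difference of NTL and NTS was 1.03 (adjusted p = 0.239), with normexp 0.48 (0.153), and it also lost its call without NTL replicate 1 (1.37, 0.0807), NTL replicate 2 (1.31, 0.0901), NTL replicate 4 (1.44, 0.0721), NTS replicate 3 (1.24, 0.104) or NTS replicate 4 (1.24, 0.0506).

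The other cytokines were called in no comparison. Osm encodes oncostatin M, which macrophages, T cells and granulocytes release and which signals through gp130 with the OSM receptor. Its log2 signal lay between -4.61 and -3.78 in control, between -4.72 and -3.89 in SFA, between -4.49 and -3.78 in LFA, and between -4.15 and -3.24 in NTL. In NTS it ran from -6.73 to -3.67, where the lowest value, in replicate 4, was the only 1 of the 20 not well above background. NTL was 0.75 above control (adjusted p = 0.367 by limma) and 1.17 above NTS (adjusted p = 0.133). Both differences turned with the background correction: with normexp they were -0.04 and -0.09, and with quantile normalization the difference of NTL and NTS was 1.45 (adjusted p = 0.019 by limma), so no direction is given for Osm. Lif, the gene of leukemia inhibitory factor, was well above background on 2 of 20 arrays, LFA replicate 4 at -4.64 and NTS replicate 3 at -3.01. Its level in all other mice was therefore not measured, and the highest Lif signal lay in a short-fiber mouse.

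Among the receptor genes, Osmr, which encodes the chain that pairs with gp130 to bind oncostatin M, was the one with higher group means in both long-fiber groups. Control mice had log2 signals of 2.31, 3.05, 2.28 and 2.01, and LFA mice 2.82, 3.48, 3.34 and 3.91. NTL mice had 3.14, 3.99, 2.67 and 3.30. The long-fiber values overlapped with control only through control replicate 2. SFA mice were scattered, at 3.09, 1.35, 2.74 and 2.08, with the lowest in replicate 2, an array rich in liver transcripts. NTS mice had 2.12, 1.72, 1.48 and 2.08, all below every NTL mouse.

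Osmr was 2.68-fold higher in NTL than in NTS (95% interval 1.57 to 4.60; log2 change 1.42, adjusted p = 0.023 by limma). Against control it changed by 0.98 in LFA (adjusted p = 0.124) and by 0.86 in NTL (adjusted p = 0.165), and LFA was 1.07 above SFA (adjusted p = 0.232), none of them called by limma. With quantile normalization NTL against control was called (1.09, adjusted p = 0.042). The call in NTL against NTS was lost with slide as a block (1.36, adjusted p = 0.154), without NTS replicates 3 and 4 (1.35, 0.0616), and without NTL replicate 2 (1.19, 0.0818), NTL replicate 4 (1.42, 0.0569), NTS replicate 2 (1.38, 0.0603) or NTS replicate 3 (1.30, 0.0728). It was kept with normexp (1.46, adjusted p = 0.0106 by limma) and with quantile normalization (1.62, 0.00274). It was also kept without the 5 arrays rich in liver transcripts (1.35, 0.0369) and with only the compared groups fitted (1.42, 0.045). On slide 2, the only slide with both groups, NTL was 1.22 above NTS.

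The binding chain for IL-6 and the shared chain gave no call. Il6ra, which encodes the IL-6 receptor, ran from 1.53 to 3.09 in control, 1.66 to 2.66 in SFA, 1.82 to 3.33 in LFA, 1.47 to 3.18 in NTS and 1.26 to 2.34 in NTL. Its change against control was -0.11 in LFA (95% interval -0.998 to 0.784) and -0.41 in NTL (-1.30 to 0.48), with adjusted p of 0.892 and 0.61 by limma. All 5 groups overlapped, and the intervals still allow a 2-fold lower level in NTL. Il6st, the gene of gp130, was the steadiest member, between 2.43 and 3.43 on all 20 arrays. It changed by -0.12 in LFA (95% interval -0.62 to 0.39) and by -0.06 in NTL (-0.57 to 0.44), so a 2-fold change in either direction lay outside both intervals. The 3 lowest Il6st signals, 2.43 in LFA replicate 3, 2.48 in NTS replicate 3 and 2.48 in NTS replicate 4, were on the 3 arrays with the most liver transcripts.

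**Figure D2:**
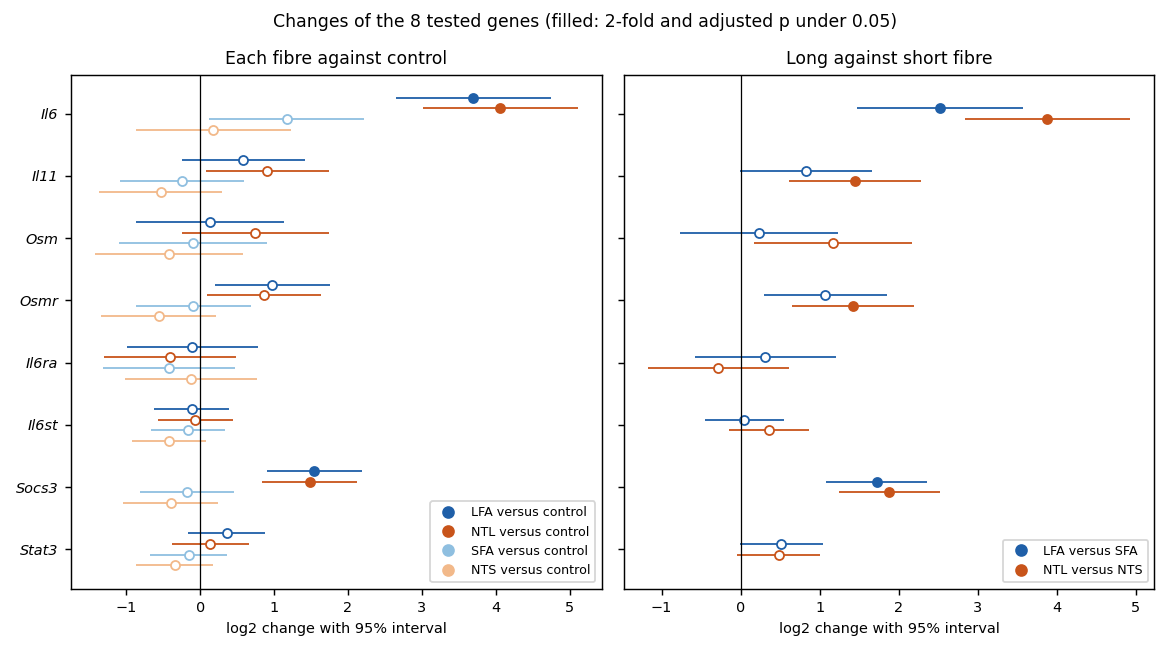
Log2 change (horizontal axis) with its 95% interval for the 8 tested genes, in each fiber group against control (left) and in long against short fibers (right). Filled points passed the 2-fold and adjusted p thresholds in limma. These are Il6 and Socs3 in LFA and NTL against control and in LFA against SFA. In NTL against NTS they are Il6, Socs3, Osmr and Il11.

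Socs3, which encodes the feedback inhibitor of gp130 signaling, rose in both long-fiber groups and in neither short-fiber group passed the test. Control mice had log2 signals of 1.61, 2.20, 1.90 and 1.89. LFA mice had 2.86, 3.73, 3.17 and 4.00, and NTL mice 2.96, 3.76, 3.22 and 3.57. The lowest of these 8 values lay above the highest control value. SFA mice had 1.98, 0.99, 2.01 and 1.90, and NTS mice 1.68, 1.20, 1.15 and 1.97. All 8 long-fiber mice were above all 12 others, as with Il6, and all 20 arrays were well above background.

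The Socs3 signal was 2.91-fold higher in LFA than in control (95% interval 1.86 to 4.54; log2 change 1.54, SE 0.31, adjusted p = 0.00995 by limma) and 2.79-fold higher in NTL (1.79 to 4.35; log2 change 1.48, adjusted p = 0.00661). LFA was 3.29-fold above SFA (2.11 to 5.14; log2 change 1.72, adjusted p = 0.00771), and NTL 3.68-fold above NTS (2.36 to 5.75; log2 change 1.88, adjusted p = 0.000805). The change against control was -0.18 in SFA (95% interval -0.82 to 0.46) and -0.40 in NTS (-1.04 to 0.24). LFA and NTL differed by 0.06 (95% interval -0.58 to 0.70), and the difference of the length effects was -0.16 (adjusted p = 1 by limma). In order, the means were 3.44 in LFA, 3.38 in NTL, 1.90 in control, 1.72 in SFA and 1.498 in NTS, and only the step from NTL to control passed the test among neighbors. Within slides LFA was above control by 1.69, 0.96 and 1.84 on slides 1, 2 and 3, and NTL by 1.06 and 1.62 on slides 2 and 3. Without the 5 arrays rich in liver transcripts the changes were 1.97 in LFA (adjusted p = 0.00231 by limma) and 1.48 in NTL (adjusted p = 0.00169). When only the 2 groups compared were fitted, the adjusted p was 0.0515 for LFA against control and 0.0881 for LFA against SFA.

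The promoters of the members that rose are given because STAT3 binds DNA at paired half-sites spelled TTCNNNGAA. Promoter sequences came from RefSeq (GRCm38.p6), where 8 of the 9 members had a window of 250 bases before and 50 after the gene start, Il11 with 2 windows. The motif, which reads the same on both strands, was present in 1 of the 9 windows, that of Socs3, and in 8.3% of all 32851 windows. The stricter form TTCCNGGAA, of the same length with more of its bases fixed, was in 0 of the 9 and in 1.15% of all. The 250 bases before the start of Socs3 and of Il6 follow, 5′ to 3′, with the motif in capitals.
Socs3 (chr11:117969367-117969616, minus strand): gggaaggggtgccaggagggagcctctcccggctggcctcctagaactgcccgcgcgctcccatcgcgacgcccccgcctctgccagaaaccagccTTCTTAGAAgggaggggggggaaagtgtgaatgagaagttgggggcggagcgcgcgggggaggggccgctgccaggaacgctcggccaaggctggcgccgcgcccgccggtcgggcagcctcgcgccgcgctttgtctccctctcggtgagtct
Il6 (chr5:30012864-30013113, plus strand): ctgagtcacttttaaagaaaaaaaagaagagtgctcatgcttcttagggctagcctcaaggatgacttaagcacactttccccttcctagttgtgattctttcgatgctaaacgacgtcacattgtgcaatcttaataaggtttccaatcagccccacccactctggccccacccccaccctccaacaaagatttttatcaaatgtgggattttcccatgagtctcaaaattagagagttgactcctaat
The match in Socs3 began 154 bases before the start. A match of letters describes this window only and is no measure of binding.

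Stat3, the gene of the transcription factor itself, was called in no comparison. The brighter of its probes, printed on 10 spots of each array, read 4.11, 4.32, 3.58 and 3.62 in control mice and 3.83, 4.38, 4.27 and 4.58 in LFA mice. NTL mice had 3.99, 4.43, 3.45 and 4.30. Of the 8 long-fiber values 3 were above the highest control value and 4 within the span of control, and the lowest NTL value was below all 4 control values. SFA mice were between 3.59 and 3.84, and NTS mice between 3.32 and 3.78. The median SD between the 10 spots of an array was 0.04, so the spread between mice was far wider than that between spots.

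Stat3 changed against control by 0.36 in LFA (95% interval -0.16 to 0.88, adjusted p = 0.389 by limma) and by 0.14 in NTL (-0.39 to 0.66, adjusted p = 0.794). A 2-fold rise lay outside both of these intervals. Without the 5 arrays rich in liver transcripts, however, the LFA change was 0.57 (95% interval -0.10 to 1.25, adjusted p = 0.294 by limma), an interval that takes in a 2-fold rise, so a rise of that size in LFA is not excluded. LFA was 0.52 above SFA (-0.01 to 1.04, adjusted p = 0.404), and NTL 0.48 above NTS (-0.04 to 1.01, adjusted p = 0.237). Relative to the median of all tested probes, the change against control was 0.639 in LFA and 0.388 in NTL. With quantile normalization it was 0.545 in LFA (95% interval 0.0892 to 1) and 0.465 in NTL (0.00987 to 0.921). Both of these intervals lay above 0, but neither change was called (adjusted p = 0.158 and 0.22 by limma). With the same normalization the difference of NTL and NTS was 0.81 (adjusted p = 0.0233 by limma), which passed the test but stayed under 2-fold. Within slides the LFA change was 0.81 on slide 1, -0.39 on slide 2 and 0.81 on slide 3. The dimmer probe was scattered, from -4.98 to -1.18 with 19 of 20 arrays well above background, and its change was -0.63 in LFA (adjusted p = 0.643) and 0.21 in NTL (adjusted p = 0.907), so the probes differed in sign for LFA. These arrays measure the amount of Stat3 mRNA, and the phosphorylation that activates the protein is not measured by them.

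The study measured Stat3 mRNA beside Il6 mRNA in microdissected tissue, which is not analysed here, and in the RNA of diaphragm tissue the relation of these genes was computed across mice. Long-fiber mice stood apart from the others, so the relations were computed within the 8 long-fiber mice and within the 12 other mice, 16 relations in all of Stat3 and Socs3 with the 4 cytokines. Socs3 followed Il6 most closely. Within the long-fiber mice Pearson's r was 0.818 (exact permutation p = 0.011, adjusted 0.175) and Spearman's rho 0.929 (exact permutation p = 0.00223), and r was 0.924 without the 2 mice farthest from the median of Il6. Within the 12 other mice r was 0.503 (permutation p = 0.0924, adjusted 0.442) and rho 0.545 (permutation p = 0.0716), with Il6 well above background in only 5 of them. Stat3 with Il6 gave r = 0.569 in the long-fiber mice (exact permutation p = 0.144, adjusted 0.442), rho = 0.786 (exact permutation p = 0.0279) and r = 0.581 without the 2 farthest mice. In the other mice r was 0.103 (permutation p = 0.76, adjusted 0.935). By Pearson's r none of the 16 relations passed the adjusted threshold on these values, and the p values of rho were not adjusted. With each value taken as its deviation from its group mean, 2 passed, both of Socs3 with Il6: r = 0.868 in the long-fiber mice and 0.773 in the others, each with an adjusted permutation p of 0.0327. Those permutations made no allowance for the removed group means, so these p values can be too small. Among the other mice, SFA replicate 2 had the lowest Il6 (-5.79, not well above background) and Socs3 (0.99) of its group. The r of the deviations without that array was not computed.

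**Figure D3:**
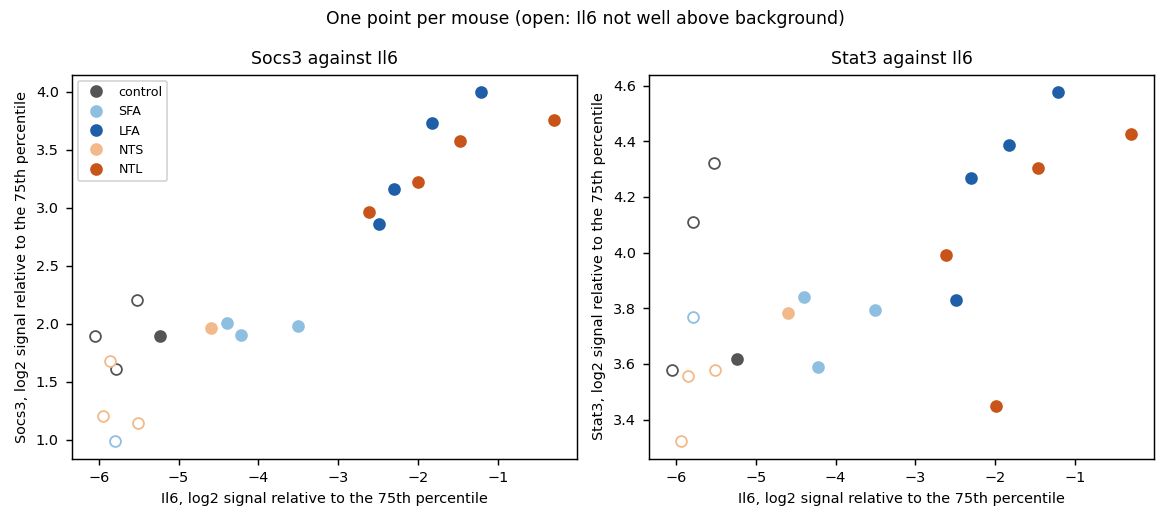
Log2 signal of Socs3 (left) and Stat3 (right) against that of Il6, each relative to the 75th percentile of the array, with 1 point per mouse colored by group and open points where Il6 was not well above background. The 8 LFA and NTL mice form a group of their own at high Il6, within which Socs3 (r = 0.818) ordered the mice more closely like Il6 than Stat3 did (r = 0.569); the difference between these r values was not tested.

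Beyond the members, 58 other genes of the pathway were tested. In LFA against control 7 were called higher and 1 lower, in NTL against control 8 higher and 0 lower, in LFA against SFA 2 higher, and in NTL against NTS 9 higher and 1 lower. Of all tested probes 2.21%, 3.64%, 1.03% and 4.92% were called higher in these comparisons, in the same order, and 1.75%, 3.16% and 2.65% were called lower in LFA against control, NTL against control and NTL against NTS. Their median change was 0.21 in LFA and 0.28 in NTL, beside -0.28 and -0.25 over all probes. In SFA and NTS against control 0 were called by limma, as for all probes, where 851 and 1299 had an unadjusted p under 0.05.

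Of the 7 other ligands tested, Ebi3, which encodes the subunit that IL-27 and IL-35 share, rose in NTL (log2 change 1.39, adjusted p = 0.0091 by limma) and was 1.06 above control in LFA (adjusted p = 0.0525). Ctf2, the gene of a cardiotrophin-like cytokine, fell by 1.65 in LFA (adjusted p = 0.0445) and had a change of -1.32 in NTL (adjusted p = 0.0786). Ctf1, which encodes cardiotrophin-1, was lower in NTL than in NTS by limma, with a change of -1.07 (adjusted p = 0.00593). The median of the list was -0.58 in LFA and -0.44 in NTL. Of the 5 other receptors, 0 were called in either comparison, with 1 and 2 at an unadjusted p under 0.05, where 24% and 23.5% of all tested probes had such a p.

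Among the 10 JAK kinases and other STATs, a single gene was called. Stat4, which encodes the STAT of IL-12 signaling in lymphocytes and myeloid cells, rose by 1.38 in LFA (adjusted p = 0.0388 by limma) and by 1.44 in NTL (adjusted p = 0.0209). Of 15 negative regulators, 2 were called in LFA and 3 in NTL, all higher. Socs1, which encodes a relative of SOCS3 induced by interferons, rose by 1.11 and 1.22. Ptpn6, which encodes the phosphatase SHP-1 of blood cells, rose by 1.36 and 1.32. Ptprc, which encodes the leukocyte antigen CD45, rose by 1.92 in NTL and was 1.30 above control in LFA (adjusted p = 0.0635 by limma). Stat4, Ptpn6 and Ptprc are genes of leukocytes. The macrophage genes given above, and the summed level of the B and plasma cell genes, moved with them, though their part in these changes was not tested. The median of the negative regulators was 0.11 in LFA and 0.01 in NTL.

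STAT3 target genes held the largest changes against control among these other genes. Of 21 tested, 4 were called higher in LFA and 3 in NTL, and 0 lower, with medians of 0.80 and 0.67. The medians and calls of this list were not computed without the 5 arrays rich in liver transcripts. Timp1, which encodes an inhibitor of matrix metalloproteinases, rose by 3.74 in LFA (adjusted p = 0.00115 by limma) and by 4.60 in NTL (adjusted p = 0.000104). Il10, the gene of the anti-inflammatory cytokine IL-10, was well above background on 0 of 4 control arrays and on all LFA and NTL arrays, so it was at least 2.25-fold higher in LFA (adjusted p = 0.00556 by limma) and at least 2.81-fold higher in NTL (adjusted p = 0.000814). These bounds set each control array at the higher of its own Il10 signal and the lowest signal it had well above background. Birc5, which encodes survivin, a protein of dividing cells, rose by 1.68 in each. Batf, a transcription factor gene of lymphocytes, rose by 1.37 in LFA and was 1.0 above control in NTL (adjusted p = 0.0793 by limma). In LFA against SFA the called genes were Timp1 (3.44) and Il10 (1.47, with 2 of 4 SFA arrays well above background). These genes also answer to other signals, so the list is named for a known input and not for what acted here.

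**Figure D4:**
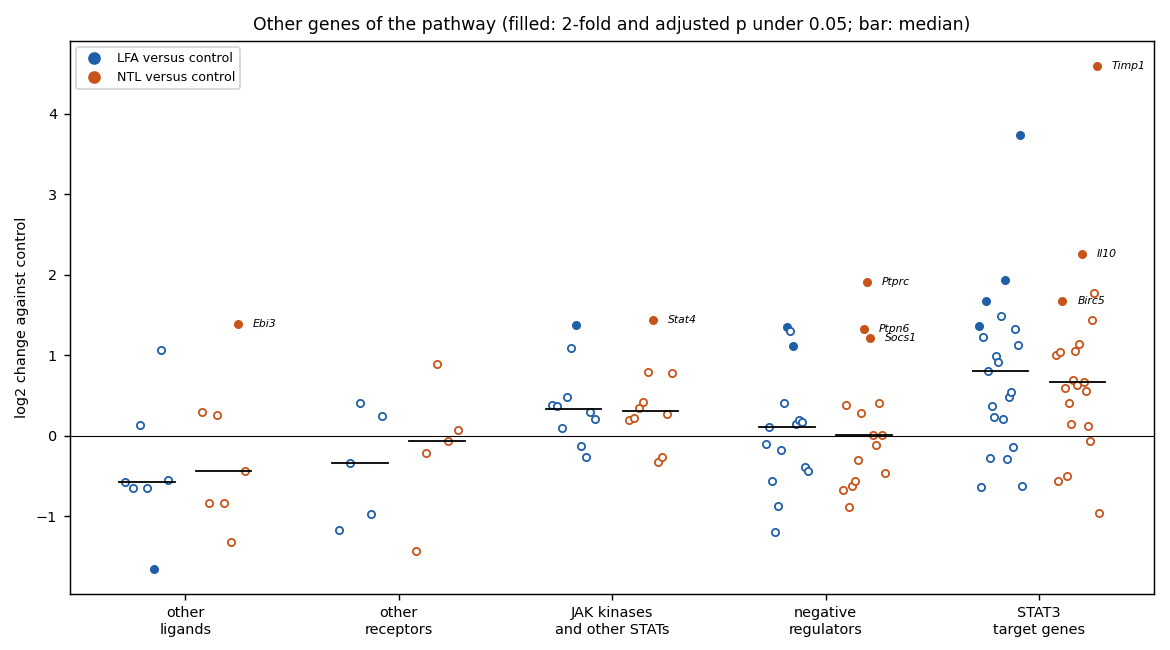
Log2 change against control (vertical axis) of the other genes of the pathway in 5 lists (horizontal axis), for LFA and NTL. Each point is 1 gene, filled points passed the 2-fold and adjusted p thresholds in limma (those of NTL are named), and bars are medians; Timp1 at 3.74 and 4.60 is the highest point of each comparison.

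The genes whose values over the 20 arrays were most like those of a called member were found by the root mean square difference of the log2 values, each centered on its own mean. For Il6 they included Clec7a at 0.57, which encodes the myeloid receptor dectin-1, and Cd200r4 at 0.65. The median difference of 18184 candidate genes from Il6 was 1.99, and the root mean square of Il6 around its own mean was 1.84. Clec7a averaged 0.32 in control, 1.29 in SFA, 3.41 in LFA, 0.82 in NTS and 3.89 in NTL. For Socs3 the nearest were Ch25h at 0.26, which encodes cholesterol 25-hydroxylase, B4galt5 at 0.27 and Cd83 at 0.28, a gene of activated dendritic and B cells, against a median of 1.11. For Osmr they were Osbpl3 at 0.19, Bend6 at 0.21 and Slc39a6 at 0.21, and for Il11 Lrrn2 at 0.28, Asphd2 at 0.28 and Nlgn2 at 0.30.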

How the data were processed

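The arrays were SurePrint G3 Mouse 8x60K, one-color. The authors deposited for each array the output of Agilent Feature Extraction 10.7.3.1, in which each spot has a background-subtracted signal intensity, and a table of log2 values normalized in GeneSpring, which was used as an alternative. Outlier spots (92 to 204 per array) were left out, 0 were saturated, and 59305 noncontrol spots were averaged into 55681 probes. From each log2 intensity the 75th percentile of its array was subtracted. Of the spots, 53% to 68.1% were well above background per array, and that signal and the 4 arrays per group limit the precision. Correlations between arrays were 0.909 to 0.984, with no duplicate arrays.

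A probe was tested if the scanner software marked it well above background on 4 or more of the 20 arrays. Tests were made with limma 3.58.1 (R 4.3.3) in a single model of 5 group means over all arrays, with Benjamini-Hochberg adjustment over 36920 probes. Calls needed a 2-fold change and an adjusted p under 0.05. The steps were tested on simulated data. Relations used permutation tests written with numpy 2.4.6, with ranks from scipy 1.17.1. The members, the 5 pathway lists and the 10 marker lists were chosen with earlier results of these data known. Named were all members, up to 4 called genes of each pathway list with the largest change, and the 3 genes most like each called member, of which 1 is not reported here; Ctf1 and the macrophage gene Cd68 were named after their values were seen. A gene is represented by its tested probe with the highest mean.

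Alternatives were normexp background correction (offset 50), quantile normalization, 2 other filters, the mean of a gene's probes, the authors' table, the methods' test, slide or replicate number as a block, fits of the compared groups alone, and leave-one-out fits. Leaving out NTS replicates 3 and 4, and the 5 arrays rich in liver transcripts, was chosen after seeing the data. Correlations of the deviations of equally numbered arrays ran from -0.676 to 0.689, with 11 of 32 over 0.1. For NTL and control all 4 were over 0.1 (0.112 to 0.689), so for that comparison the numbers count as pairs by the rule used here, and the blocked values are given with the alternatives. Probe positions are those of the files, and promoters came from the RefSeq table.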

Additional observations from a re-analysis of the deposited data

Results flagged for a closer look

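Socs3 in SFA replicate 2 lay far below the other mice of its group, at a log2 signal of 0.99 against 1.90 to 2.01. It was the only 1 of 50 sets of 4 arrays, taken over the members and groups, with a mouse so far from the others, where about 1 set in 20 would be marked by chance. The same array had a mean log2 level of liver genes of 6.55, the highest of the SFA arrays, and the lowest Osmr (1.35) and Il6 (-5.79) of its group. Without it, LFA was above SFA in Il6 by 2.09 (adjusted p = 0.0661 by limma).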

How the results depend on the processing

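In LFA and NTL against control, Il6 and Socs3 kept their direction under every alternative that gave them a value, with 2 members called whichever array was left out. A filter on all arrays, which drops Il6 because it was dim in control, left 1 member called in LFA, in NTL and in LFA against SFA. Fitting only the groups compared left 1, Il6, in LFA against control, where Socs3 lost its call (1.54, adjusted p = 0.0515 by limma). It left 0 in LFA against SFA, where Il6 (2.53, 0.0783) and Socs3 (1.72, 0.0881) lost theirs. LFA against SFA kept 1, Socs3, with normexp and with quantile normalization, where Il6 lost its call (0.97, 0.164, and 2.77, 0.0514). With an array left out 1 to 2 were called there (Il6 2.09 to 2.85). In NTL against NTS 2, Il6 and Socs3, were called with slide as a block, without NTS replicates 3 and 4, and by the methods' test. Il11 and Osmr lost their calls with slide as a block (1.03 and 1.36) and without those NTS arrays (0.82 and 1.35). Neither entered the methods' test (1.45 and 1.42). With an array left out 2 to 4 were called there (Il11 1.24 to 1.71, Osmr 1.19 to 1.62). Il11 in that comparison was 0.48 with normexp, 1.45 with only the groups compared (0.089) and 0.82 without the liver-rich arrays. The methods' test gives each probe 1 p over all groups at once, so it does not test any 2 groups against each other. By it 1 member, Il6, counted as called in SFA against control at 1.17, where limma gave an adjusted p of 0.998. Deviations from group means gave 2 relations that passed, with the limits given above. No called value reversed. The causes were not tested. With replicate number as a block no call changed (Il6 3.70 in LFA, adjusted p = 0.00165, and 4.06 in NTL, 0.000426; Socs3 1.54, 0.0179, and 1.48, 0.0115). Lif and the control level of Il6 are limited by signal over background.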
